A study of Mus musculus with 4 samples.

Results

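Cells of YUMMER1.7 melanomas treated with anti–PD-1/anti-MIF (called the combination below) were compared with cells of melanomas treated with anti–PD-1 alone. Cells were kept at 200 to 5000 genes and at most 5% mitochondrial UMIs (unique molecular identifiers, each counting 1 captured RNA molecule), and each was given to the arm whose hashtag held the most UMIs when that number was at least 3 times the second. The 2 arms held 2864 of the 6625 cells assigned to any hashtag, out of 7503 barcodes. The long treatment cohort (2 weeks, 4 doses, tumors taken on day 21) gave 386 anti–PD-1 cells and 288 combination cells. The short treatment cohort (1 week and 2 doses, with tumors taken on day 14) gave 1714 and 476.

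The study asked by scRNA-Seq how PD-1 and MIF blockade alter the tumor microenvironment (TME). All mice were WT C57BL/6J males, 7 to 8 weeks old, bearing subcutaneous tumors of the YUMMER1.7 line, a mouse melanoma line with a high load of UV-induced mutations. Anti–PD-1 was clone RMP1-14 at 10 mg/kg, anti-MIF was clone IIID.9 at 20 mg/kg, and both were injected intraperitoneally from day 7 after implantation. The other arms were an isotype antibody, anti-MIF alone, and a hashtag in the files that also names DDT, whose cells were not analysed here. Tumor cells were sorted on CD45, the pan-leukocyte surface protein, and the sorted fractions were put back together in a set proportion that favored CD45+ cells. Within a cohort all arms shared 1 gene expression library, so the 2 arms compared do not differ by library, whereas the cohorts differ in both treatment time and library. A hashtag marks an arm and does not tell its mice apart, so each arm is 1 sample in each cohort.

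PD-1 is an inhibitory receptor on activated T cells, and its blockade releases T cells to kill and to secrete interferon-γ. MIF is a cytokine made by tumor and immune cells that signals through the class II invariant chain CD74 together with CD44, and through chemokine receptors. In myeloid cells interferon-γ acts through IRF1 and other transcription factors on a well-defined set of targets, which include the T cell–attracting chemokines CXCL9 and CXCL10, the guanylate-binding proteins, the immunity-related GTPases, and the feedback inhibitor SOCS1.

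The arms rest on the hashtag oligonucleotides, so the pair that separates them is shown here, 5′ to 3′. They differ at 13 of 15 positions.
anti-PD1: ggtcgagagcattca
anti-PD1-MIF: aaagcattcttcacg
The median cell held 2911 UMIs of its own hashtag in the anti–PD-1 arm and 1501.5 in the combination arm of the long cohort, against 1526 and 849.5 for the short cohort. In cells of the other arms the anti–PD-1 hashtag had a median of 211 UMIs in the long and 34 in the short cohort, and the combination hashtag 39 in both. In the long cohort 221 cells had a ratio between 2 and 3 and were left unassigned, and 229 had a ratio between 3 and 4. The cohorts shared 20 cell barcodes. Median depth was 6258.5 UMIs a cell with anti–PD-1 and 8969 under the combination in the long cohort, against 5663.5 and 5677 for the short cohort. Total depth was 2853603 and 2658344 UMIs for the long cohort, and 10347930 and 2820881 for the short cohort. Median mitochondrial content was between 0.528% and 0.775% in these 4 arm samples.

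T cells were gated as cells with a UMI of Cd3e, a chain of the T cell receptor complex, and fewer than 5 UMIs of Lyz2, the lysozyme gene of myeloid cells. Myeloid cells were gated at 5 or more Lyz2 UMIs and no Cd3e UMI. All 11 T cell markers were detected in the T gate of both arms, and all 8 monocyte and 11 macrophage markers in the myeloid gate. The myeloid gate held 2, 7, 58 and 22 UMIs of T cell markers (long anti–PD-1, long combination, short anti–PD-1, short combination), with Cd3e at 0 by construction. Of 9 melanoma markers, 8 had too few UMIs to be tested over all cells and the exception was Mitf. Whether this line expresses those markers was not tested. The T gate took a smaller share of cells with the combination in both cohorts, and the myeloid gate took a larger share in the long cohort alone. In the long cohort T-gated cells were 20.2% of the anti–PD-1 arm (78 cells; 95% Clopper-Pearson interval 16.3 to 24.6) and 14.9% of the combination arm (43 cells; 11 to 19.6), a difference of −5.28 percentage points (95% Newcombe interval −10.9 to 0.610) that includes 0. The short-cohort shares were 11.7% (200 cells; 10.2 to 13.3) and 8.19% (39 cells; 5.89 to 11), a difference of −3.48 points (−6.15 to −0.319). For reference, isotype tumors had 35.8% and 4.57% T-gated cells in the long and short cohorts, and anti-MIF tumors 12.3% and 9.35%. The order of the isotype and anti–PD-1 arms was therefore opposite in the 2 cohorts, while the combination was below anti–PD-1 in both.

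Myeloid-gated cells were 31.1% of the anti–PD-1 arm and 47.6% of the combination arm in the long cohort, a difference of 16.5 points (9.04 to 23.7). The short-cohort shares were 56.8% and 56.5%, a difference of −0.255 points (−5.31 to 4.72), and with gates set on cells thinned to 2000 UMIs they were 50.7% and 44.5%, a difference of −6.17 points. Counted among T- and myeloid-gated cells only, T cells were 39.4% against 23.9% in the long cohort (−15.5 points, −24.5 to −6.12) and 17.1% against 12.7% in the short cohort (−4.39 points, −8.35 to 0.264). Cells in neither gate made up 48.2% and 36.8% of the long-cohort arms and 31.2% and 34.9% of the short-cohort arms. These intervals, and all others given for 1 arm sample, cover counting error only. The mice of an arm are not separated, 2 cohorts cannot give a sign-flip p below 0.5, and the CD45 sort and recombination act on every share.

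**Figure D1:**
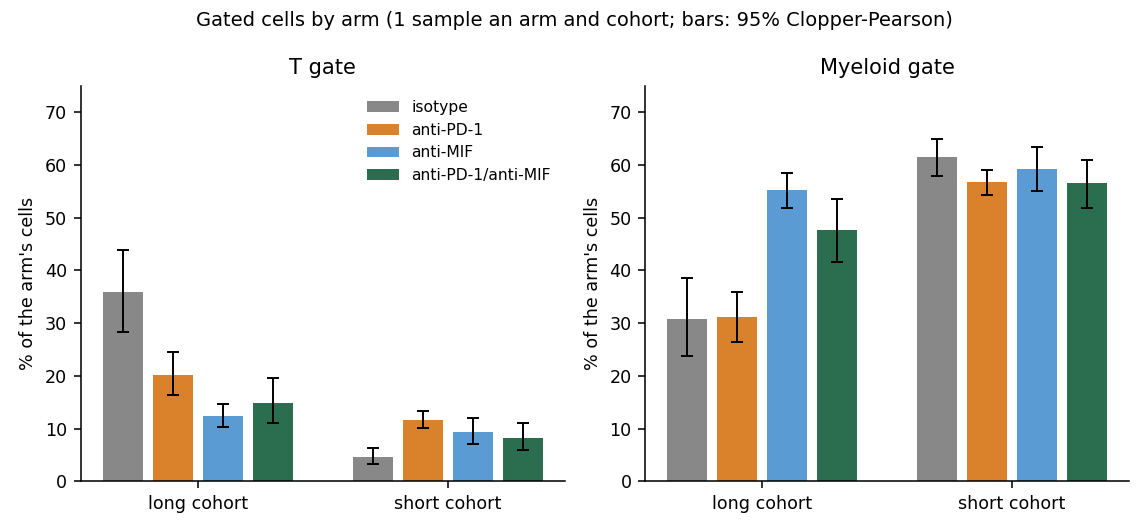
Share of each arm's cells (y axis, %) in the T gate (left) and the myeloid gate (right) for the isotype, anti–PD-1, anti-MIF and combination arms of each cohort; bars are 1 sample each and lines are 95% Clopper-Pearson intervals. The T gate is smaller with the combination than with anti–PD-1 in both cohorts, and the myeloid gate is larger in the long cohort (47.6% against 31.1%).

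To compare expression, UMIs were summed over the cells of an arm, cohort and gate. These sums were fitted with edgeR's quasi-likelihood test over the 8 arm samples of the isotype, anti–PD-1, anti-MIF and combination arms, with arm and cohort as terms, which left 3 residual degrees of freedom. A gene was called at a Benjamini-Hochberg adjusted p under 0.05. Beside this test, genes are described as shifted where the log2 difference of CPM (a UMI count scaled to a fixed library total, with TMM factors) between the combination and anti–PD-1 was at least 0.5 in size and of the same sign in both cohorts. Over all cells, 0 of 11207 genes were called (0.00%), with 375 at an unadjusted p under 0.05 and 5 calls by DESeq2. In the myeloid gate 0 of 9610 were called (0.00%), with 295 at an unadjusted p under 0.05 and 2 calls by DESeq2. In the T gate 7 of 5731 were called (0.122%) by edgeR, with 235 at an unadjusted p under 0.05, 4 calls by DESeq2, 22 with only the 4 arm samples compared, 1 each with the hashtag at 5 times the second and with HTODemux, and 0 in cells thinned to 2000 UMIs. Without any test, 197 genes were shifted higher (1.76%) and 336 lower (3.0%) over all cells, 227 higher (2.36%) and 202 lower (2.10%) in the myeloid gate, and 166 higher (2.90%) and 245 lower (4.27%) in the T gate. The differences of the 2 cohorts had the same sign for 51.4% of genes over all cells, 50.7% in the myeloid gate and 48.8% in the T gate. In sums of this kind, fewer cells of a type and less RNA per cell cannot be told apart.

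Genes of the interferon-γ response were lower with the combination than with anti–PD-1 in the myeloid gate of both cohorts. Of the 23 genes on the list, 21 were tested, 20 were lower in both cohorts, and 9 were shifted lower (Gbp5, Gbp2, Cxcl10, Gbp4, Irgm1, Tgtp1, Irf1, Socs1 and Iigp1), where 2.10% of all genes tested were. None was shifted higher, and 0 of 21 were called by edgeR (adjusted p of 1 for each gene named below). The median log2 difference of the list was −0.78 in the long and −0.53 in the short cohort, against 0.03 and 0.01 over all genes tested. The share of all genes lower in both cohorts was not taken. Of all genes tested in this gate 50.7% had the same sign in both cohorts, which includes those higher in both. Cxcl11 was not in the files, and Ido1 had too few UMIs to be tested.

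The Cxcl10 level, in CPM over myeloid-gated cells, was 996 with isotype, 1496 with anti–PD-1, 606 under anti-MIF and 492 under the combination in the long cohort. The short cohort had 731, 1567, 703 and 926 in the same order. The anti–PD-1 arm was the highest of the 4 arms in both cohorts, and the ratio of the combination to anti–PD-1 was 0.329 (95% interval 0.301 to 0.359) in the long and 0.591 (0.562 to 0.622) in the short cohort. The fitted log2 fold change was −1.14 ± 0.27 (SE), with an adjusted p of 1 by edgeR. Cxcl10 encodes a ligand of CXCR3 that recruits T cells and NK cells.

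Irf1, the transcription factor that carries much of the interferon-γ signal, was at 251, 226, 162 and 128 CPM (isotype, anti–PD-1, anti-MIF, the combination) in the long cohort and at 145, 448, 156 and 224 in the short cohort. Its ratio was 0.566 (0.467 to 0.685) and 0.50 (0.451 to 0.554), and the fitted log2 fold change −0.94 ± 0.36 (adjusted p of 1, edgeR). In the short cohort the anti–PD-1 arm stood well above the other 3 arms, whereas in the long cohort isotype was the highest.

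Gbp2, an interferon-induced GTPase, was at 457, 455, 323 and 316 CPM in the long cohort and at 193, 847, 325 and 521 in the short cohort, and its ratios were 0.695 (0.612 to 0.789) and 0.614 (0.574 to 0.658). Gbp5, another member of that family, was at 149, 132, 73.2 and 66.3 CPM and at 60.7, 256, 109.7 and 154, with ratios of 0.503 (0.386 to 0.652) and 0.602 (0.530 to 0.682). Both members showed the combination near anti-MIF alone in the long cohort and between anti-MIF and anti–PD-1 in the short cohort. Members of the Gbp family, and Tgtp1 with Tgtp2, are close copies whose reads the counting could split, so their separate values are uncertain. Socs1, which blocks JAK kinases downstream of the receptor, was at 61.2, 97.8, 60.2 and 35.5 CPM in the long cohort and at 41.5, 165, 51.2 and 87.9 in the short cohort. Its ratios were 0.363 (0.257 to 0.508) and 0.532 (0.449 to 0.628), and its fitted log2 fold change was −1.11 ± 0.36 (adjusted p of 1, edgeR). Nos2, the inducible nitric oxide synthase, was the single member higher in both, at 24.5 against 46.9 CPM and 61.9 against 66.6 CPM.

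**Figure D2:**
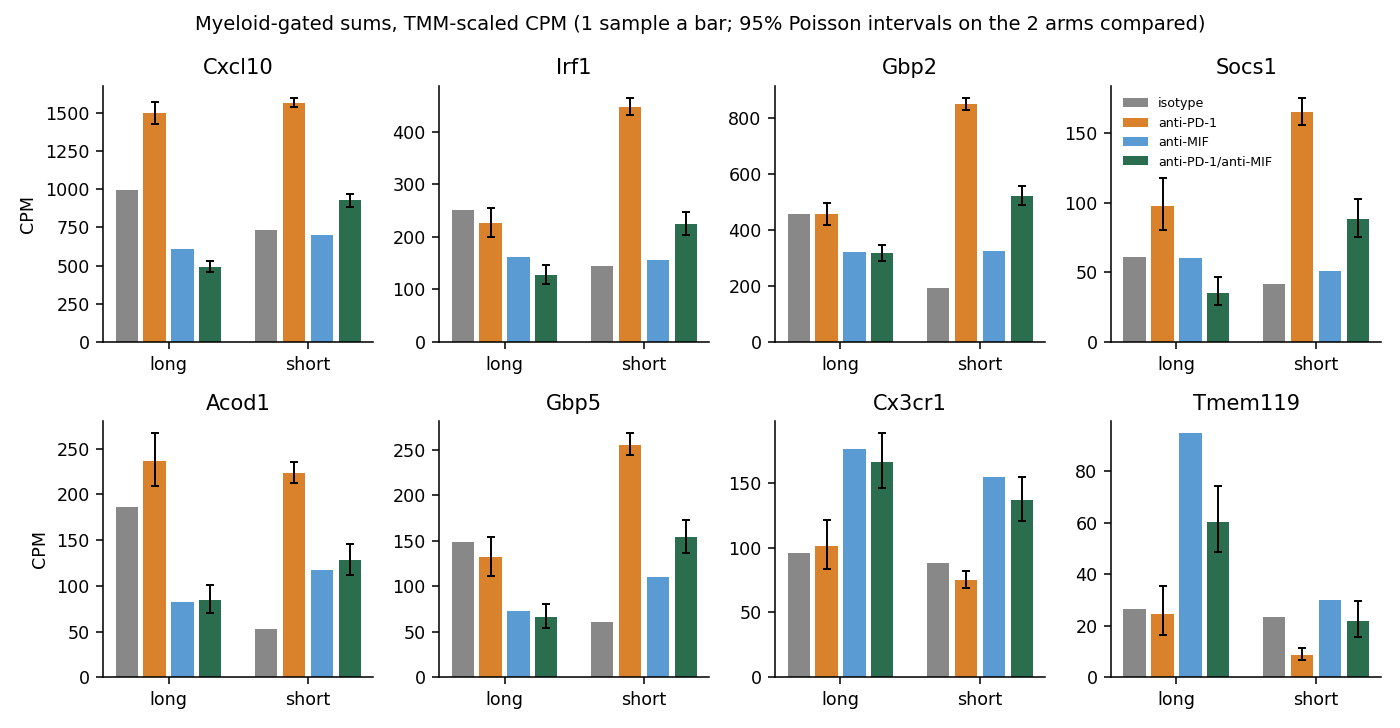
Level in the myeloid-gated sums (y axis, TMM-scaled CPM) of 8 genes in the 4 arms of each cohort; each bar is 1 sample, and lines on the 2 arms compared are 95% Poisson intervals. Cxcl10, Irf1, Gbp2, Socs1, Acod1 and Gbp5 are lower with the combination than with anti–PD-1 in both cohorts, and Cx3cr1 and Tmem119 are higher.

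The 250 bases upstream of the RefSeq transcription start of Cxcl10, Irf1 and Socs1 are shown because these genes carry the pattern (GRCm38.p6, each read 5′ to 3′ on its own strand). Capitals mark matches to the interferon-γ–activated site GAS, searched as TTCNNNGAA, or to the interferon-stimulated response element ISRE, searched as GAAANNGAAA, both on either strand. The genes themselves lie at chr5:92346638-92348889, chr11:53770014-53778374 and chr16:10782240-10785536. The windows are chr5:92348890-92349139 on the minus strand for Cxcl10, chr11:53769764-53770013 on the plus strand for Irf1, and chr16:10785537-10785786 on the minus strand for Socs1.
Cxcl10: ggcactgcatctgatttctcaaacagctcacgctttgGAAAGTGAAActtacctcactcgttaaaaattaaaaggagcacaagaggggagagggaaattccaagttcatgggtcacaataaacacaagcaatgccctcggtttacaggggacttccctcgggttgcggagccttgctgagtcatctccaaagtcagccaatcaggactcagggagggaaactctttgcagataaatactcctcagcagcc
Irf1: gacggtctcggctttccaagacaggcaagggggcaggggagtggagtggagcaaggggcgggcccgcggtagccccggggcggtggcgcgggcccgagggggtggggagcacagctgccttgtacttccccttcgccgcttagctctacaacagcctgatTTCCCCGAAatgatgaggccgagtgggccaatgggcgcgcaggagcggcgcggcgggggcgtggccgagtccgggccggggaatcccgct
Socs1: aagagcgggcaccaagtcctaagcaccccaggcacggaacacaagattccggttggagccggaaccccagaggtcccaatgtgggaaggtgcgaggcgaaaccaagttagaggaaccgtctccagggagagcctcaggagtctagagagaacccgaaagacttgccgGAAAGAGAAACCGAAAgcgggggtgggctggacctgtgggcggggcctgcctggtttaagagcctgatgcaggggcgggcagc
The Cxcl10 window held 1 ISRE match, the Irf1 window 1 GAS match, and the Socs1 window 2 ISRE matches that overlap. Of the 21 list genes tested, 15 had a window in the RefSeq table. A GAS match was found in 8 of these (53.3%) and in 7.18% of all 27025 windows, and an ISRE match in 11 (73.3%) and in 3.04% of all windows. The list was made of known interferon targets, so this is a description of the list and not a result of the comparison, and a match is not a site shown to be used.

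The share of cells with a UMI was compared after thinning each cell to 2000 UMIs, because cells of the long combination arm were deeper. In the short cohort 38.9% of anti–PD-1 and 26.1% of combination myeloid-gated cells had a Cxcl10 UMI (−12.8 points, −18.6 to −6.37), and in the long cohort 30.5% and 22.1% (−8.45 points, −19.2 to 2.35), where the interval includes 0. Irf1 was seen in 47.2% and 28.8% of cells in the short cohort (−18.4 points, −24.4 to −11.8) and in 22.9% and 19.9% in the long cohort (−3.03 points, −13.2 to 6.99). Gbp2 was seen in 55.5% and 42.4% in the short cohort (−13.0 points, −19.6 to −6.22) and in 44.1% and 23.5% in the long cohort (−20.5 points, −31.6 to −8.91). All 3 genes were thus seen in fewer combination cells. The Gbp2 interval includes 0 in the long cohort at 1000 UMIs (−9.05 points, −19.1 to 0.954) and in the short cohort without thinning (−4.86 points, −11.3 to 1.20). In the long cohort that of Cxcl10 excludes 0 at 1000 UMIs (−21.1 to −1.43) and that of Irf1 without thinning (−24.8 to −0.840). Depth before thinning was 8950 and 10852 median UMIs for the long cohort, and 6650 and 6473 for the short. T-gated cells, taken as background for free RNA, had a Cxcl10 UMI in 3.98% and 2.94% of cells in the short and in 0% of cells in the long cohort, where 70 and 42 cells remained, far below the myeloid gate.

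C1qa and Ly6c2 shares of the myeloid gate differed between the arms in the long cohort, and in the short cohort their intervals include 0. C1qa, a complement gene of mature macrophages, was seen in 21.2% of anti–PD-1 and 33.1% of combination cells of the long cohort (11.9 points, 0.876 to 22.4), and in 12.3% and 9.85% of the short cohort (−2.42 points, −6.19 to 2.20). Ly6c2, which marks monocytes that recently entered tissue, was seen in 71.2% and 53.7% of the long cohort (−17.5 points, −28.7 to −5.55) and in 79.8% and 78.0% of the short cohort (−1.74 points, −7.64 to 3.55). Without thinning the long-cohort difference of Ly6c2 was −7.11 points (−17.1 to 3.26). Cells with UMIs of Cd74, Aif1 and any of the 3 C1q genes, a macrophage marker set, differed by 7.27 points in the long cohort (−3.69 to 17.8; −3.73 at 1000 UMIs) and by −0.724 points in the short cohort (−5.05 to 4.38). The interferon-γ genes were therefore taken within each kind of cell, an alternative chosen after the data were seen. Among cells with a C1qa UMI after thinning (25 and 45 in the long cohort, 117 and 26 in the short), 18 of the 21 genes were lower in both cohorts, and among cells with a Ly6c2 UMI (84 and 73, 761 and 206) also 18 were. The share of all genes lower in both cohorts was not taken in these sets, so the counts have no reference. A cell can be in both sets. Cxcl10 was at 1237 against 168 CPM and 952 against 455 CPM in C1qa-positive cells, and at 1931 against 535 CPM and 1696 against 1061 CPM in Ly6c2-positive cells, with anti–PD-1 first and the long cohort first. The Cxcl10 level was thus lower in both sets of cells in both cohorts. Ifng itself was not shifted in the T gate, at 414 against 824 CPM in the long cohort and 273 against 78.6 CPM in the short cohort. Its part in the myeloid difference, in T cells or in other cells that make it such as NK cells, was not tested.

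**Figure D3:**
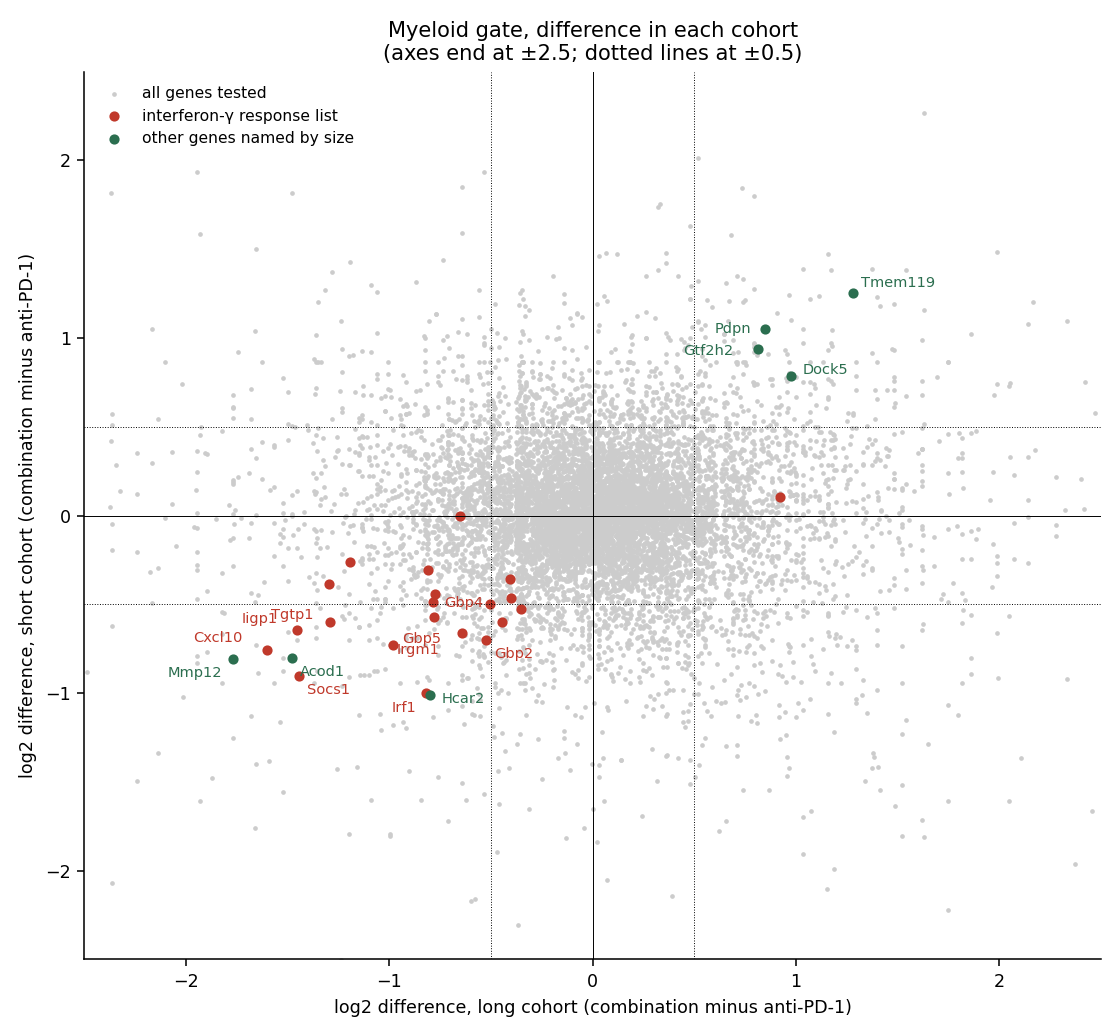
Log2 difference, the combination minus anti–PD-1, of each gene tested in the myeloid gate (long cohort on the x axis, short cohort on the y axis; dotted lines at 0.5 in either direction; 87 of 9610 genes lie beyond the axes' end of 2.5 and are not drawn). Genes of the interferon-γ response (red) lie mostly in the lower left, with 9 beyond the dotted lines, while the medians of all genes tested are 0.03 and 0.01.

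Other interferon and antigen presentation lists had few or no shifted genes in the myeloid gate. Their difference from the interferon-γ list was not tested, and all 18 type I and 22 of 23 class I genes had a fitted value below 0. Counts of genes lower in both cohorts stand beside the 50.7% of all genes tested with the same sign in both, higher or lower. Of 18 type I interferon response genes tested, none was shifted and 10 were lower in both cohorts, with medians of −0.57 in the long and −0.04 in the short cohort. Isg15, a ubiquitin-like interferon product, was at 1788 against 1196 CPM in the long and 1807 against 1652 CPM in the short cohort. Of 23 MHC class I and peptide-loading genes, none was shifted and 14 were lower in both, with medians of −0.40 and −0.11. B2m, the light chain of class I, was at 3390.2 against 2949.7 CPM and 4080.1 against 3958 CPM, and H2-D1, a classical heavy chain with close paralogs, was at 2609 against 1877 CPM and 2319 against 2132 CPM. Of 16 MHC class II genes 1 was shifted lower (H2-Oa), and the medians were 0.00 and −0.03. Fcγ receptors, complement, lysosomal proteases and the BCL2 family had 0 shifted genes of 5, 10, 13 and 11 tested.

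Of the 7 genes for MIF and its receptors, 5 were tested in the myeloid gate and 0 were shifted (Cxcr2 and Ackr3 were not tested). Mif was at 723 against 673 CPM in the long and 681 against 768 CPM in the short cohort, and Cd74, its binding chain, at 11592 against 10959 and 7883 against 7770.1 CPM. Cd44, the signaling partner of CD74, was at 511 against 493 CPM and 1045 against 693 CPM, lower beyond counting error in the short cohort only (ratio 0.664, 0.625 to 0.704). Anti-MIF binds the protein, so these levels are no check of its effect.

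Among inflammatory genes of the myeloid gate, 2 of 12 tested were shifted lower, Ptgs2 and Il1a, and the list medians were −0.44 and −0.72. Ptgs2 (cyclooxygenase 2, which makes prostaglandins) was at 149 against 105 CPM in the long cohort (ratio 0.704, 0.564 to 0.880) and at 342 against 201 CPM in the short cohort (0.587, 0.525 to 0.654). Il1a, an alarmin of the interleukin-1 family, was at 11.4 against 7.37 CPM and 18.2 against 7.99 CPM. Its long-cohort ratio interval of 0.263 to 1.57 includes 1, and 1 cell each held 7 of 11 and 8 of 15 UMIs of the combination sums. Acod1, whose product makes itaconate, was at 237 against 84.4 CPM (0.357, 0.286 to 0.442) and 224 against 128 CPM (0.572, 0.497 to 0.656). Hcar2, a receptor for hydroxybutyrate and niacin, was at 29.7 against 16.8 CPM and 35.1 against 17.1 CPM. Mmp12, the macrophage elastase, was at 200 against 58.3 CPM and 78.9 against 44.8 CPM, but 132 of its 229 UMIs in the long anti–PD-1 sum came from 1 cell. Acod1, Hcar2, Mmp12, Irf1 and Socs1 were the 5 genes with the largest lower differences under the naming rule, and none was called (adjusted p of 1 each, edgeR).

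Among the named higher genes were Tmem119, Pdpn, Gtf2h2 and Dock5. Tmem119, a membrane protein best known from microglia, was at 24.5 against 60.3 CPM in the long cohort (ratio 2.47, 1.60 to 3.92) and at 8.80 against 21.8 CPM in the short cohort (2.48, 1.63 to 3.76), with a fitted log2 fold change of 1.33 ± 0.33 (adjusted p of 1, edgeR). Its ratio was nearly equal in the cohorts. Pdpn, a mucin-type ligand of CLEC-2, was at 15.7 against 28.8 CPM and 18.5 against 38.9 CPM. Gtf2h2, a subunit of the transcription factor TFIIH, was at 19.2 against 34.2 CPM and 13.1 against 25.6 CPM, and Dock5, a guanine nucleotide exchange factor for Rac, was at 21.8 against 43.6 CPM and 36.5 against 63.4 CPM. Cx3cr1, the fractalkine receptor of resident-type macrophages and some monocytes, was singled out after its values were seen. It was at 95.9, 101, 176 and 166 CPM in the long and 88.4, 75.4, 155 and 137 CPM in the short cohort (isotype, anti–PD-1, anti-MIF, the combination), so both arms with anti-MIF were above both arms without it in each cohort. Its fitted log2 fold change was 0.79 ± 0.18 (adjusted p of 1, edgeR), and thinned shares were 11% against 18.4% in the long cohort (7.37 points, −1.54 to 16.0), where the interval includes 0, and 10.5% against 18.2% in the short cohort (7.70 points, 3.01 to 13.1).

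Genes of lipid handling were split. Axl, a receptor for apoptotic cells, was shifted higher (71.6 against 125 CPM and 60.0 against 86.9 CPM), and Fabp5 and Cd36 were shifted lower, out of 13 tested. Cd36, a scavenger receptor for oxidized lipid, was at 33.2 against 4.69 CPM in the long cohort (38 and 7 UMIs; ratio 0.141, 0.0533 to 0.320) and at 28.5 against 7.99 CPM in the short cohort (194 and 15 UMIs; 0.281, 0.154 to 0.475). Its fitted log2 fold change was −2.21 ± 0.33, with an adjusted p of 0.459 by edgeR, the smallest in this gate. Fabp5, a fatty acid–binding protein, was at 134 against 91.8 CPM and 169.8 against 114 CPM. Of 20 cell cycle genes tested, 4 were shifted higher (Mcm3, Cdc20, Ccnb2 and Birc5), with medians of 0.78 in the long and 0.04 in the short cohort. Mcm3, part of the replicative helicase, was at 8.73 against 36.2 CPM (10 and 54 UMIs) and 6.75 against 11.2 CPM (46 and 21 UMIs), where the second interval of 0.940 to 2.84 includes 1. Birc5, the mitotic protein survivin, was at 27.1 against 41.5 CPM and 1.47 against 3.20 CPM, within counting error in both cohorts. Of the markers of dendritic cells within the gate, Clec9a, a receptor for dead cells on type 1 conventional DCs, was at 26.2 against 0.670 CPM (30 and 1 UMIs) and 6.89 against 4.26 CPM (47 and 8 UMIs; ratio interval 0.252 to 1.32). Xcr1, the defining chemokine receptor of these DCs, was at 0 in the long combination sum. Summed over the 7 markers of these DCs, of which Irf8 was the most abundant, the level was 505 against 221 CPM and 375 against 353 CPM. Over all cells that sum was 784 against 483 CPM in the long and 462 against 479 CPM in the short cohort. In long-cohort cells of neither gate, thinned to 2000 UMIs, Xcr1 was seen in 3.25% against 3.45%.

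Among chemokines other than Cxcl10, the shifted genes had few UMIs. Ccl24 was at 0 against 8 UMIs in the long and 23 against 11 UMIs in the short cohort, Ccl8 at 7 against 1 and 14 against 0, and Ccl17 at 2 against 1 and 4 against 0. Of 12 CC chemokines tested, 1 was thus shifted higher and 2 lower, with medians of 0.26 and −0.36. The 15 genes that the study names for this comparison were chosen on these same samples, so they are not independent evidence. Of the 14 tested in the myeloid gate, 0 were shifted, and the medians were −0.04 and −0.09. Ccl5, a chemokine for T cells and monocytes, was at 316 against 84.4 CPM in the long and 274 against 349 CPM in the short cohort, and Thbs1, a matrix glycoprotein, at 424 against 949.5 CPM and 1287 against 803 CPM, so both had opposite signs in the 2 cohorts.

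**Figure D4:**
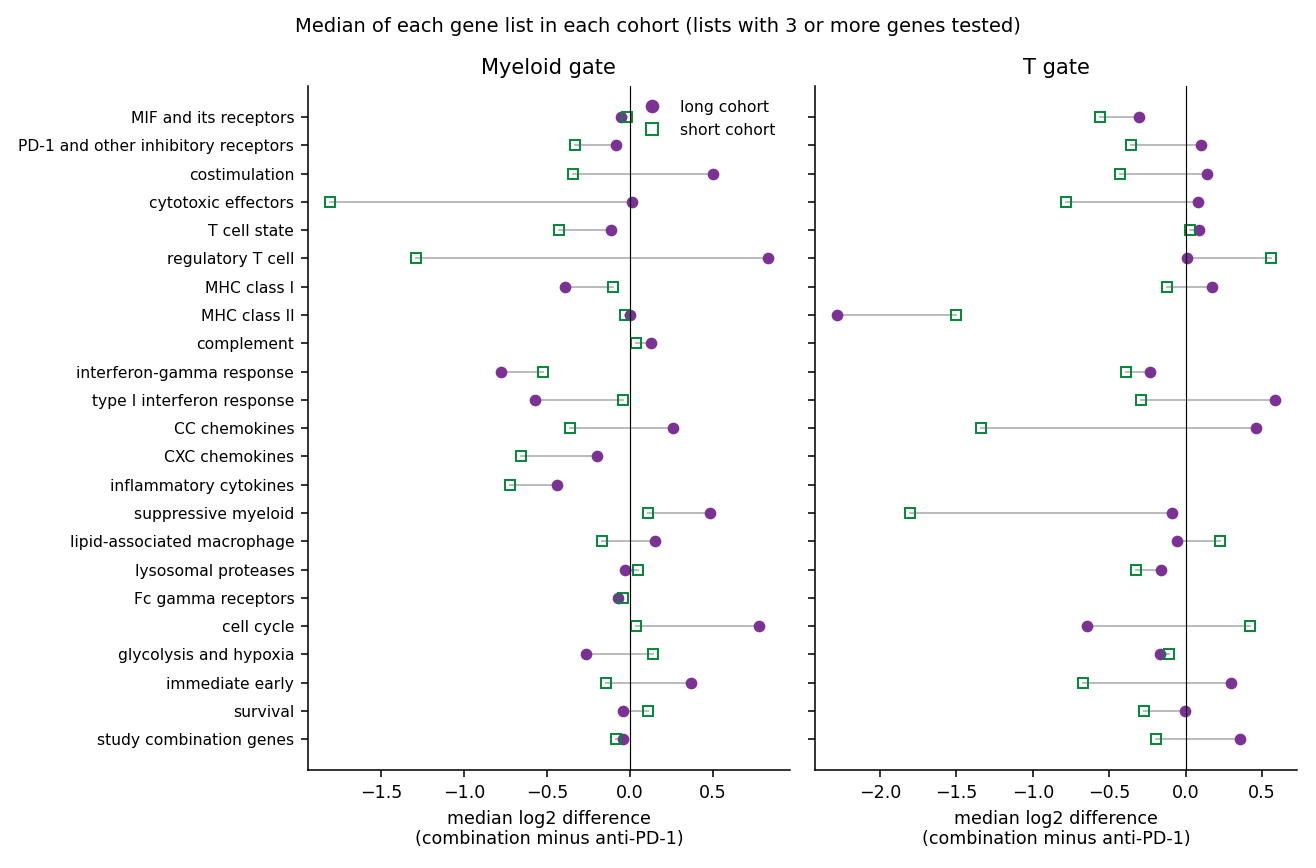
Median log2 difference (x axis, the combination minus anti–PD-1) of the genes tested in each list, in the long cohort (purple circles) and the short cohort (green squares), for the myeloid gate (left) and the T gate (right). In the myeloid gate the interferon-γ response and inflammatory cytokine lists are among those below 0 in both cohorts; in the T gate the MHC class II list is among them, at −2.28 and −1.50.

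In the T gate the 7 called genes were 4 of MHC class II (Cd74, H2-Aa, H2-Ab1 and H2-Eb1), all lower with the combination, and 3 T cell receptor segments. Cd74 was at 72.6, 904, 318 and 99.2 CPM (isotype, anti–PD-1, anti-MIF, the combination) in the long and at 92.9, 528, 96.7 and 45.8 CPM in the short cohort. Its log2 fold change was −3.31 ± 0.38 (adjusted p of 0.000759, edgeR). H2-Aa, the class II α chain, was at 307 against 22.9 CPM and 195 against 6.55 CPM (−4.03 ± 0.47, adjusted p of 0.000759, edgeR). H2-Ab1 was at 155 against 15.3 CPM and 174 against 19.6 CPM (−3.28 ± 0.56, adjusted p of 0.031, edgeR), and H2-Eb1 at 238 against 15.3 CPM and 183 against 0 CPM, with an adjusted p of 0.000759.

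The class II UMIs came from a handful of cells. In the long anti–PD-1 arm 4 of 78 T-gated cells had 10 or more UMIs of the 4 genes and held 723 of 795 UMIs (90.9%), 674 of them in 1 cell. In the short anti–PD-1 arm 3 of 200 cells held 844 of 932 UMIs (90.6%), at 351, 320 and 173 UMIs. No T-gated cell of the combination arms reached 10, where the totals were 40 UMIs in 43 cells and 11 UMIs in 39 cells. In the remaining cells the mean was 0.973 against 0.930 UMIs a cell in the long and 0.447 against 0.282 in the short cohort. Without the cells of 10 or more UMIs, an alternative added after the data were seen, Cd74 had a log2 fold change of −0.26 with an adjusted p of 1 by edgeR, and 3 calls remained in the gate. The calls of Cd74 and H2-Aa were also lost with the hashtag at 5 times the second, where Cd74 had −1.87, and with HTODemux, where it had −1.68. These cells carried Cd3e and had fewer than 5 Lyz2 UMIs. Macrophage markers in the T gate summed to 39 and 11 UMIs in the long and 148 and 2 UMIs in the short cohort, C1qb being the most abundant in the short anti–PD-1 sum, and markers of mature DCs to 215 and 17 UMIs in the long and 36 and 10 UMIs in the short cohort, led by Ccr7. Doublets of 1 arm share a hashtag. A doublet between arms can also pass the hashtag rule where 1 hashtag is much stronger, and the median own-hashtag UMIs of isotype cells were 920 and 375.5 beside the 2911 and 1526 of anti–PD-1 cells. Doublets were therefore not all removed, and their part in this result was not tested.

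**Figure D5:**
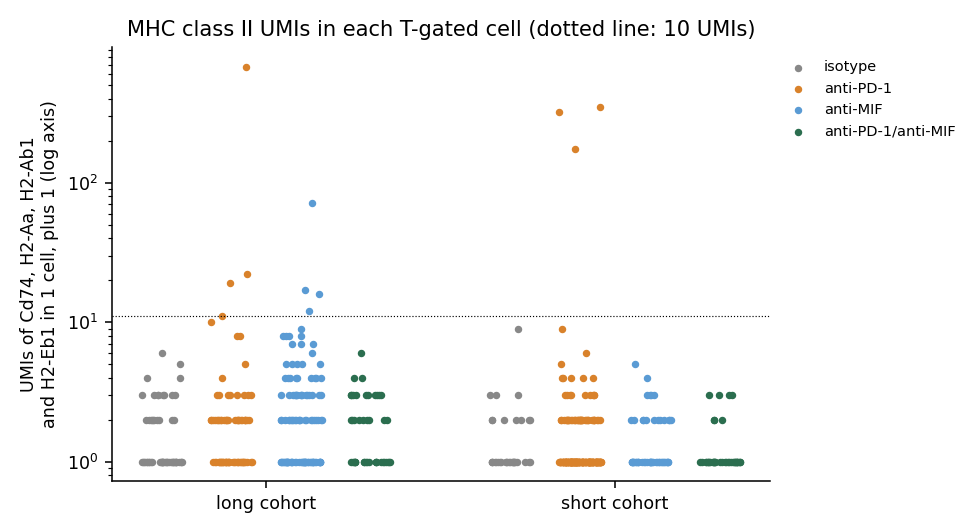
UMIs of Cd74, H2-Aa, H2-Ab1 and H2-Eb1 together in each T-gated cell, plus 1 (y axis, log scale), by arm and cohort; the dotted line marks 10 UMIs. A few anti–PD-1 cells reach 173 to 674 UMIs, and no combination cell reaches 10.

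The called receptor segments were Trbv16, lower, and Trbv31 and Trav3-1, higher. They lie outside the naming rule and were named after their values were seen. A variable segment is shared by the T cells of a clone. Clones were not identified here, so whether these levels follow which clones were sampled was not tested. Trbv16 had 231 UMIs in 21 of 78 cells against 1 UMI in 43 cells in the long cohort, and 41 UMIs in 8 of 200 cells against 1 UMI in 39 cells in the short cohort. Trbv31 had 1 UMI against 131 UMIs in 19 cells, and 9 UMIs in 5 cells against 13 UMIs in 3 cells. Trav3-1 had 9 UMIs in 1 cell against 64 UMIs in 10 cells in the long cohort and 0 UMIs in both arms of the short cohort, so its call rests on the long cohort. Without the long anti–PD-1 sample its log2 fold change was 0.29 (adjusted p of 1, edgeR).

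T cell state and function genes had 0 calls. Cytotoxic effectors had 4 of 16 genes shifted lower and 1 higher. Serpinb9, an inhibitor of granzyme B, was at 222 against 137 CPM in the long cohort (ratio 0.619, 0.413 to 0.909) and 242 against 118 CPM in the short cohort (0.487, 0.283 to 0.788). Gzmk was at 159 against 103 CPM and 139 against 58.9 CPM, and Gzma at 6.05 against 49.6 CPM and 299 against 549.9 CPM, with 9 of 13 and 53 of 84 UMIs of the combination sums in 1 cell each, so its shift rests on single cells. Gzmd and Gzme, near-identical copies whose reads may be split, were at 46 and 39 UMIs with anti–PD-1 and 1 each with the combination in the long cohort, and at 35 and 21 against 0 each in the short cohort. Gzmb and Ifng, the main killing protease and the main T cell cytokine, were singled out after their values were seen. Gzmb was at 1521 against 2514 CPM in the long cohort (1.65, 1.49 to 1.84) and 1124 against 524 CPM in the short cohort (0.466, 0.366 to 0.586), and Ifng had ratios of 1.99 (1.64 to 2.42) and 0.287 (0.146 to 0.511). Both were therefore higher in the long and lower in the short cohort. In the short cohort the thinned share of T-gated cells with a Gzmb UMI was 55.1% against 29.4% (−25.7 points, −40.2 to −7.39), and in the long cohort 48.6% against 61.9% (13.3 points, −5.62 to 30.6), where the interval includes 0.

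None of 11 inhibitory receptors and ligands tested in the T gate was shifted. Pdcd1, which encodes PD-1 itself, was at 452 against 492 CPM and 364 against 177 CPM, Ctla4 at 438 against 454 CPM and 497 against 458 CPM, and Lag3 at 535 against 565 CPM and 244 against 189.8 CPM. Of 20 T cell state genes, Lef1 and Cxcr3 were shifted higher and Nr4a3 lower. Cxcr3, the receptor of the Cxcl10 product, was at 36.3 against 76.3 CPM and 42.9 against 65.5 CPM, the second within counting error (0.677 to 3.13) and with 10 of 18 UMIs of the long anti–PD-1 sum in 1 cell. Lef1, a factor of naive and stem-like T cells, was at 16.1 against 26.7 CPM (8 and 7 UMIs; ratio interval 0.511 to 5.22) and 68.4 against 308 CPM (59 and 47 UMIs; 3.0 to 6.72). Nr4a3, induced by receptor signaling, was at 82.7 against 45.8 CPM and 246 against 91.6 CPM. Cd8a was seen in 67.1% against 73.8% of thinned T-gated cells in the long cohort and in 60.8% against 41.2% in the short cohort (−19.6 points, −36.0 to −1.45; without thinning −8.15, −24.7 to 7.98), and Foxp3, which marks regulatory T cells, in 2.86% against 0% (0 of 42 cells) and in 5.11% against 8.82%. Interferon-γ response genes in the T gate had 6 of 18 shifted lower and none higher, with medians of −0.23 and −0.39. Irf8 was at 216 against 107 CPM and 181 against 91.6 CPM, and Irf1 at 131 against 87.8 CPM (0.397 to 1.09) and 187 against 58.9 CPM (0.142 to 0.615). Cd44, which is also a marker of activated T cells, was shifted lower at 218 against 145 CPM and 389 against 255 CPM. Among genes named by size, Ccnd3, the cyclin of T cell proliferation, was at 270.3 against 397 CPM and 198 against 379.7 CPM. St6galnac3, a sialyltransferase, was at 206 against 355 CPM and 163 against 301 CPM, and Plcl2 at 58.5 against 103 CPM and 132 against 216 CPM. Gadd45gip1, a mitochondrial ribosome protein, was at 52.5 against 95.4 CPM and 41.7 against 91.6 CPM. Phlda1 was at 133 against 237 CPM and 47.5 against 177 CPM, with 20 of 27 UMIs of the short combination sum in 1 cell. Gm156 was lower, at 325 against 91.6 CPM and 127 against 13.1 CPM.

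Over all cells, T cell and NK cell genes were lower with the combination, beside the smaller T gate. B cell markers were lower in the long cohort only, at 165 against 61.7 CPM in the long cohort and 78.2 against 212 CPM in the short cohort, summed over 7 genes led by Ighm. Of 11 T cell markers 6 were shifted lower, with medians of −0.69 and −0.76, and of 7 NK cell markers 3 were (Klre1, Klrk1 and Klra8), with medians of −0.41 and −1.28. The 6 T cell markers include Cd3e, which sets the T gate, and were counted in the same cells. They are therefore no separate evidence for the smaller T gate. Cd3g, a chain of the T cell receptor complex, was at 299.9 against 186 CPM in the long cohort (ratio 0.622, 0.556 to 0.695) and 118 against 53.3 CPM in the short cohort (0.450, 0.377 to 0.534). Klre1, a receptor of NK cells, was at 45.2 against 22.2 CPM and 58.5 against 26.0 CPM. Of 12 inhibitory receptors and ligands, 5 were shifted lower (Ctla4, Pdcd1, Cd160, Cd96 and Cd274). Pdcd1 was at 87.0 against 53.1 CPM in the long and 36.4 against 13.2 CPM in the short cohort, while within the T gate it was not shifted. Cd274, which encodes PD-L1, was at 296 against 206 CPM and 386 against 272 CPM. Interferon-γ response genes over all cells had 5 of 21 shifted lower (Cxcl10, Irf1, Gbp5, Iigp1 and Gbp4), with medians of −0.49 and −0.52. Of 16 cytotoxic effectors 6 were shifted lower, and Gzmc and Gzmd were among the genes with the largest differences. Gzmc was at 136 against 9.04 CPM in the long cohort (ratio 0.0663, 0.0420 to 0.100) and at 185 against 63.3 CPM in the short cohort (0.341, 0.291 to 0.398). Most of its UMIs were in cells of neither gate, 349 of 401 and 1808 of 1847 with anti–PD-1, and 3 or more UMIs were found in 7 of 386 against 1 of 288 cells and in 24 of 1714 against 2 of 476 cells. Single cells held 231 of 401 Gzmc UMIs of the long anti–PD-1 sum and 168 of 178 of the short combination sum. Gzmd was at 140 against 2 UMIs and 258 against 3 UMIs, and Gzme at 58 against 1 and 137 against 0. Klra7, an NK cell receptor of a family of close copies, was at 44.9 against 7.16 CPM and 40.2 against 8.53 CPM, and Gm156 at 55.1 against 9.04 CPM and 11.1 against 1.07 CPM. Cells outside the T gate with a UMI of Ncr1, which encodes the NK receptor NKp46, were 2.59% against 3.13% in the long and 5.48% against 1.47% in the short cohort.

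The higher genes named over all cells were Dcn, Lcn2, Serping1, Htra3 and Tmem119, and single cells held most UMIs of 3 of them. Dcn, a proteoglycan of fibroblasts, had all 320 UMIs of the long and all 50 UMIs of the short combination sum in 1 cell each. Serping1, the C1 inhibitor, had 118 of 150 and 51 of 51 in 1 cell, and Lcn2, a siderophore-binding protein of neutrophils and epithelium, 380 of 596 in 1 cell of the long cohort. Htra3, a secreted serine protease, was spread over cells, with UMIs in 25 of 386 against 66 of 288 cells in the long and in 29 of 1714 against 18 of 476 cells in the short cohort, at 22.8 against 51.2 CPM and 4.22 against 10.3 CPM. Tmem119 was at 10.2 against 38.0 CPM and 7.43 against 16.4 CPM over all cells, the same direction as in the myeloid gate.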

How the data were processed

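Single-cell 5′ gene expression and hashtag libraries of 2 cohorts were deposited as UMI counts per gene or hashtag and barcode, raw and not normalized. The authors made them with Cell Ranger 7.1.0 on mm10, and the submitters' processing notes also name Seurat 5.1.0, R 4.3.2 and DESeq2. The annotation release is not given in the sources used here, and gene positions are from GENCODE M21, joined by Ensembl identifier (32235 of 32285 genes). Cells were filtered and assigned as described above, which removes only doublets between arms of like hashtag strength. No doublet caller was run, and free RNA was not subtracted. Counts were summed per arm, cohort and gate, low genes were dropped with filterByExpr, and sums were fitted with edgeR 4.0.16 in R 4.3.3 (TMM, glmQLFit and glmQLFTest, two-sided). The script was tested on simulated data. Log2 differences used a prior count of 2, and shares used Python 3.11.15 with scipy 1.17.1. Ratios carry conditional binomial intervals at 95%. DESeq2 1.42.0 and HTODemux in Seurat 5.3.0 were alternatives, with other limits, gates and scalings.

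Gene groups were 23 lists and 14 marker lists. Named genes were the 2 to 4 shifted list members with the most UMIs, or the members with the most UMIs, the called genes, and in each gate the 5 higher and 5 lower genes with the largest smaller difference of the 2 cohorts, given 50 UMIs over the 2 arms and an interval without 0 in each cohort, leaving out mitochondrial and antigen receptor genes. Mast cell and basophil, and erythroid, markers had 0 genes tested. The members, lists and rules were chosen with earlier results of these data known. Some genes that the rule names are not reported here.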

Additional observations from a re-analysis of the deposited data

Results flagged for a closer look

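Values are log2 differences, the combination (anti–PD-1/anti-MIF) minus anti–PD-1, and the pair is long cohort then short cohort. Each item went in opposite directions in the cohorts by at least 0.5. With 1 sample an arm in each cohort, the difference between cohorts was not tested.

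Several markers of rare cells were among these. Over all cells the median was −2.49 and 1.94 for B cells, −0.73 and 2.55 for plasmacytoid DCs, −0.51 and 1.28 for mature DCs, and −0.73 and 3.51 for stroma. Siglech, a receptor of plasmacytoid DCs (−0.97 and 2.69), had UMIs in 13 of 386 against 6 of 288 cells in the long cohort and in 19 of 1714 against 18 of 476 cells in the short cohort, so the short-cohort difference was spread over cells. Ly6d, another gene of these cells and of B cell precursors, was at −1.78 and 2.53, Ighm, the IgM heavy chain, at −0.78 and 0.72, and Ccr7, the lymph node homing receptor, at −0.95 and 0.94. For stroma, 1 cell of the short combination arm held 139 of 140 Col3a1 and 97 of 98 Col1a1 UMIs.

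In the myeloid gate neutrophil markers had a median of 3.15 and −1.34. S100a8, a neutrophil calcium-binding protein, was at 3.63 and −1.44, with 3409 of its 5105 UMIs in the long combination sum in 1 cell, and S100a9, its partner, at 3.58 and −5.16. The regulatory T cell list, with 3 genes tested there, had a median of 0.83 and −1.29.

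The remaining genes are given as values for those with at least 200 UMIs over the 2 arms in each cohort. In the myeloid gate Ccl3 was at 1.20 and −0.73, Ccl4 at 0.62 and −1.78, Fosb at 1.33 and −0.93, Thbs1 at 1.16 and −0.68, and Bcl2l11 at 0.72 and −0.64. In the T gate Ifng was at 0.99 and −1.74, Gzmb at 0.72 and −1.09, Ccl3 at 0.50 and −3.15, Btg2 at 0.70 and −0.67, and Ly6c2 at 0.51 and −0.94. Over all cells S100a9 was at 1.88 and −0.98, Il1b at 0.51 and −0.89, Nlrp3 at 0.56 and −1.01, Thbs1 at 1.33 and −0.66, Tnfsf9 at 0.77 and −0.82, Fosb at 1.12 and −0.93, Bcl2l11 at 0.58 and −0.88, and Egln3 at −0.64 and 0.99. Of these remaining genes, all but Egln3, a hypoxia-induced hydroxylase, were higher in the long and lower in the short cohort. They were chosen for their opposite directions, so nothing about a gene group can be read from them.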

How the results depend on the processing

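Counts of calls depended on the processing. Over all cells the 0 calls became 5 with DESeq2, 42 without a filter on low counts and 1 when only the 4 arm samples compared were fitted. In the myeloid gate the 0 calls became 2, 49 and 11, and in the T gate the 7 calls became 4, 47 and 22 under the same settings. T gate calls were 1 with the hashtag at 5 times the second, 1 with HTODemux, 0 in cells thinned to 2000 UMIs, and 3 without the T-gated cells rich in class II UMIs. Leaving out 1 arm sample at a time gave 0 to 1 calls over all cells, 4 to 14 in the T gate and 0 to 8 in the myeloid gate, the 8 without the short combination sample. At a shift of 1.0 in place of 0.5, 27 genes were higher and 63 lower over all cells, 19 and 54 in the T gate, and 26 and 27 in the myeloid gate, and 0 interferon-γ genes were shifted in the myeloid gate. In the other 11 alternatives that count was 7 to 11 of the genes tested. Genes shifted lower in the T gate were 150 with the hashtag at 5 times the second, and 66 were higher and 69 lower there in thinned cells. The short-cohort myeloid share difference was −6.17 points when gates were set on thinned cells. Of 639 refits of named genes 0 changed sign. Those genes were chosen for the same sign in both cohorts or for a call, which makes a sign change unlikely, so this count is no independent check. The cause of the changes in the other counts was not tested. The reported fit already has cohort as a term, which pairs the arms of a cohort, so no further pairing was tried. With 39 to 43 T-gated cells in the combination arms, differences of T cell genes within their intervals cannot be told from counting error at this depth. Larger differences can also go uncalled, with 1 sample an arm in each cohort and 3 residual degrees of freedom.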

Other observations

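Macrophage genes were higher over all cells with the combination in the long cohort, beside its larger myeloid gate. Of 11 macrophage markers 8 were higher in both cohorts but 0 were shifted, with medians of 0.56 in the long and 0.10 in the short cohort. C1qa, a complement gene, was at 411 against 718 CPM (anti–PD-1 first) and 198 against 254 CPM. The complement list had 6 of 10 genes and the MHC class II list 9 of 16 genes higher in both cohorts, with 0 shifted in either. The share of all genes higher in both cohorts was not taken. Over all cells 51.4% of the genes tested had the same sign in both, which includes those lower in both. Within the myeloid gate Spp1, the secreted phosphoprotein osteopontin, was at 307 against 429.5 CPM (ratio 1.40, 1.22 to 1.60) and 195 against 479 CPM (2.45, 2.25 to 2.67), just under the limit for a shift in the long cohort. It was named after its values were seen.

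Hypoxia genes of the T gate had 2 of 18 shifted lower. Bnip3, a mitophagy receptor, was at 18 against 2 UMIs in the long and 49 against 0 UMIs in the short cohort, and Ero1l, an oxidase of the endoplasmic reticulum, at 133 against 26.7 CPM and 75.3 against 39.3 CPM. In the T gate 1 of 14 type I interferon genes was shifted higher (Rtp4) and 1 lower (Ifitm3), 1 of 19 cell cycle genes lower (Ccnb2), and 0 of 23 MHC class I, 8 costimulation, 9 regulatory T cell, 15 immediate early, 10 lysosomal and 9 survival genes. In the myeloid gate 0 of 21 glycolysis and hypoxia, 15 immediate early, 7 costimulation and 6 inhibitory receptor genes were shifted. Of T cell genes in the myeloid gate, Nkg7 of 6 cytotoxic genes was shifted lower and Il2ra of 3 regulatory genes higher. Of dendritic markers there, Clec10a was shifted higher and Cd209a lower among 7 of type 2 conventional DCs, Ccr7 and Ccl17 lower among 4 of mature DCs, and Siglech and Ly6d higher among 4 of plasmacytoid DCs, where Siglech UMIs came from 0 against 1 and 2 against 1 cells.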
